A study of Capra hircus with 3 samples.

Results

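The miRNAs described here are the 10 members of 2 related clusters and their single relative: miR-17, miR-18a, miR-19a, miR-19b, miR-20a and miR-92a of the miR-17-92 cluster, miR-106b, miR-93 and miR-25 of the miR-106b-25 cluster, and miR-92b. They were measured in 3 small RNA libraries from skin taken at the side of the body of adult Shanbei White cashmere goats. The libraries stand for the growing (anagen), regressing (catagen) and resting (telogen) stages of the hair cycle, and each was made from a single pool of RNA from 10 goats, 5 males and 5 females. No treatment, age or genotype that distinguishes the groups is given, nor whether the same goats were sampled at each stage. The study places the stages in different months of the year, so stage and season cannot be told apart. A member's reads were all deposited sequence tags that start with the same 18 bases as a tag listed for it. This gave 19 arms for the 10 members, out of 471 arms with reads for 313 miRNA names, and 19, 18 and 18 of the 19 had at least 1 read in the anagen, catagen and telogen libraries. No start was shared between 2 members.

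A miRNA gene is transcribed as a long RNA from which a hairpin is cut, and each side (arm) of that hairpin can give a short RNA, named 5p or 3p. The arm with more reads (the main arm) is usually the one kept in the silencing complex, which finds target messages by pairing with the seed, bases 2 to 8 of the miRNA. The miR-17-92 cluster is transcribed as a single precursor that the growth regulator MYC switches on, is amplified in lymphomas, and is known for promoting cell division and survival. The miR-106b-25 cluster lies in an intron of MCM7, a gene of the DNA replication helicase. In the RefSeq goat gene table (assembly ARS1.2) the 6 genes of miR-17-92 neighbour each other, and those of miR-106b, miR-93 and miR-25 neighbour each other inside MCM7, while the gene of miR-92b has no chromosome assigned there.

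The most abundant tag of each main arm, summed over the 3 libraries, is shown first because the seeds divide the members across the clusters. The seed is in capitals, written as DNA from 5′ to 3′ and read from the deposited tags.
miR-17-5p: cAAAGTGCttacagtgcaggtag
miR-20a-5p: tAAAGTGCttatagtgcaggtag
miR-106b-5p: tAAAGTGCtgacagtgcagata
miR-93-5p: cAAAGTGCtgttcgtgcaggtag
miR-18a-5p: tAAGGTGCatctagtgcagatag
miR-19a-3p: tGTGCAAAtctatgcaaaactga
miR-19b-3p: tGTGCAAAtccatgcaaaactg
miR-92a-3p: tATTGCACttgtcccggcct
miR-25-3p: cATTGCACttgtctcggtctga
miR-92b-3p: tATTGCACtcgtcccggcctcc

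The 10 sequences carried 4 seeds. AAAGTGC was shared by 4 main arms, of miR-17 and miR-20a from miR-17-92 and of miR-106b and miR-93 from miR-106b-25. ATTGCAC was shared by miR-92a, miR-25 and miR-92b, GTGCAAA by miR-19a and miR-19b, and AAGGTGC was carried by miR-18a alone. No other arm among the 471 carried any of these 4 seeds. The list of tags held is shortened, so other miRNAs of the skin with these seeds may be missing. Some members differed by a single base within the first 18. miR-92a-3p and miR-92b-3p shared 17 of 18 bases and differed by T10C, and miR-19a-3p and miR-19b-3p shared 17 of 18 and differed by T11C, with positions counted from 1 at the 5′ end and the first-named arm's base first. The main arms of miR-17, miR-18a, miR-20a, miR-92a and miR-25 were not among the listed tags held, so they were identified from the deposited tags, each as the candidate that paired most strongly with the listed opposite arm of that hairpin. The reads of miR-19b and miR-92a cannot be divided between their copy in miR-17-92 and a further gene copy elsewhere in the genome that makes the same mature RNA. The first 18 bases of miR-18a are also those of its relative miR-18b. Tags whose base 19 onward read GTT, the ending that differs from the sequence above, had 0, 1 and 1 reads.

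The libraries held 15997828 (anagen), 18111912 (catagen) and 27016012 (telogen) clean reads, of which 45.4, 45.4 and 36.5% lay in the 471 arms. Levels are given in TPM, the unit of the study, which is the reads of an arm for every 1000000 clean reads of its library, and 3 reads, taken as the limit of detection, corresponded to 0.188, 0.166 and 0.111 TPM. With 1 library for each stage there was no replicate check, and the difference between stages and that between pools cannot be told apart. The 95% intervals cover counting error only and the tests compare libraries, not stages. In a mixed tissue, fewer cells of a type and less RNA per cell cannot be told apart. Muscle miRNAs (miR-1, miR-206 and miR-133) took 0.412, 7.88 and 2.14% of the clean reads, and red blood cell miRNAs (miR-451, miR-144 and miR-486) summed to 1312, 2137 and 878 TPM. Of the 5 epithelial miRNAs held, miR-205 stood at 990, 1790 and 1863 TPM, miR-200b at 33.3, 41.0 and 40.1 TPM and miR-200c at no more than 0.666 TPM, while miR-183 (158, 108 and 101 TPM) and miR-200a (1.38, 1.16 and 0.629 TPM) were highest in anagen. Of the 2 dermal miRNAs, miR-199a stood at 12534, 22725 and 18010 TPM and miR-214 at 0.625, 1.49 and 1.63 TPM. Because the list of tags held is shortened, it can lack the main arm of a miRNA. Here let-7g had 2, 8 and 28 reads, though the study names it among its most abundant miRNAs. The same may hold for miR-200a (22, 21 and 17 reads), miR-200c (2, 5 and 18) and miR-214 (10, 27 and 44), which was not tested. The myeloid miR-223 stood at 10.2, 15.5 and 58.8 TPM, the leukocyte miR-142 at 74.3, 78.0 and 90.6 TPM and the endothelial miR-126 at 38.9, 32.0 and 37.1 TPM. The muscle miRNAs and miR-199a were thus highest in catagen, as was the red cell sum, although miR-144 alone was highest in anagen (104, 76.4 and 7.18 TPM). miR-205, miR-214 and miR-223 were highest in telogen. The part of these cell types in the results was not tested.

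The levels of the members ranged from traces to abundant RNAs. miR-92a-3p was read 12050, 11607 and 20094 times in the anagen, catagen and telogen libraries, or 753, 641 and 744 TPM. miR-25-3p was read 11454, 22744 and 17171 times, or 716, 1256 and 636 TPM. These were the most read members in every library: counting all tags, miR-92a led in anagen and telogen and miR-25 in catagen, whereas over tags of 21 bases or longer miR-25 led in each, with 488, 1190 and 540 TPM against 255, 554 and 414 TPM. miR-93-5p came next in each library with 152, 327 and 246 TPM (2425, 5917 and 6638 reads). Below it lay miR-106b-5p, with 82.3, 129 and 142 TPM, and miR-19b-3p, the member of the cluster best known as its oncogenic component in lymphoma, with 111, 110 and 137 TPM. miR-17-5p followed at 63.9, 71.7 and 111 TPM and miR-20a-5p at 43.3, 53.3 and 62.2 TPM. miR-92b-3p stood at 41.9, 31.9 and 39.5 TPM. The scarcest were miR-18a-5p, with 75, 77 and 101 reads (4.69, 4.25 and 3.74 TPM), and miR-19a-3p, with 17, 9 and 15 reads. In the order of the 10 levels within each library, all neighbours differed beyond counting error except miR-20a and miR-92b in anagen and miR-106b and miR-19b in telogen.

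**Figure D1:**
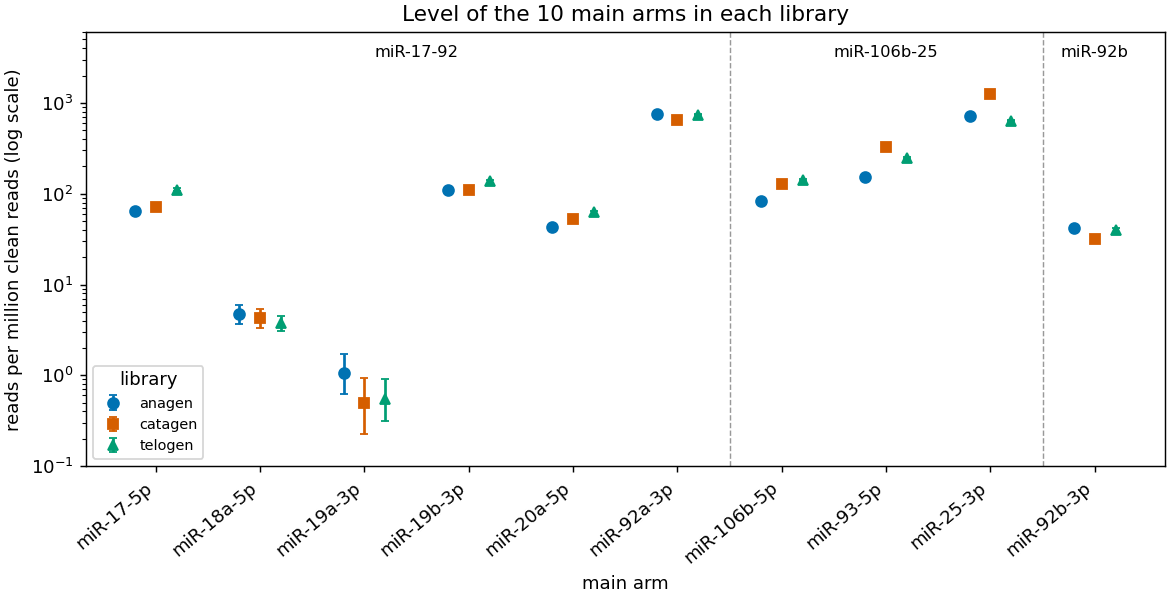
Level of each main arm in TPM, on a log axis, in the anagen (circle), catagen (square) and telogen (triangle) libraries, with exact 95% counting intervals. miR-92a-3p and miR-25-3p lie highest, between 636 and 1256, and miR-18a-5p and miR-19a-3p lowest, at under 5.

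Members of the same cluster did not have the same level. Within miR-17-92, miR-92a-3p had 11.8, 8.94 and 6.72 times the reads of miR-17-5p in anagen, catagen and telogen. Over tags of 21 bases or longer this was 4.2, 7.82 and 3.83 times, highest in catagen and not in anagen. miR-19b-3p had 1775, 1986 and 3693 reads where miR-19a-3p, which differs from it by a single base of the first 18, had 17, 9 and 15. Reads of miR-92a and miR-19b may come in part from their further gene copies, so their ratios do not measure a single precursor. miR-17-5p had 1.48, 1.34 and 1.78 times the reads of miR-20a-5p. Within miR-106b-25, miR-93-5p had 1.84, 2.53 and 1.73 times the reads of miR-106b-5p. These ratios are within a library and do not depend on scaling, though ligation and amplification can favour some sequences over others, which was not tested.

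The first comparison asked how the members differed between growing and regressing skin. The miR-106b-25 cluster was lower in anagen, and miR-17-92 was near its level in catagen when all tags were counted but lower in anagen over tags of 21 bases or longer (log2 of its sum -0.75). miR-93-5p, at 152 TPM in anagen and 327 in catagen, was 2.16 times higher in catagen, a log2 ratio of anagen over catagen of -1.11 (95% interval -1.18 to -1.04). miR-25-3p was 1.75 times higher in catagen (log2 -0.81, interval -0.84 to -0.78) and miR-106b-5p 1.57 times (log2 -0.65, interval -0.75 to -0.55). In miR-17-92 the log2 ratios were 0.23 for miR-92a-3p (interval 0.20 to 0.27), 0.02 for miR-19b-3p (interval -0.08 to 0.11), -0.16 for miR-17-5p (interval -0.28 to -0.05), -0.30 for miR-20a-5p (interval -0.45 to -0.16) and 0.14 for miR-18a-5p (interval -0.34 to 0.62). miR-92b-3p stood at 0.39 (interval 0.23 to 0.56). The value of miR-18a-5p depended on its tags: its most abundant tag, with 7, 36 and 43 reads, gave -2.18 for anagen over catagen and -1.86 for anagen over telogen. For the same pairs the most abundant tag of miR-93-5p gave -2.23 and -1.37, where all its tags gave -1.11 and -0.70.

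By a criterion of an absolute log2 ratio above 1 with an Audic-Claverie exact p below 0.01 among arms of at least 1 TPM in either library (the test and minimum are those of the study), 2 of the 15 member arms tested were called, both lower in anagen. They were miR-93-5p (exact p = 1.95e-242) and the minor arm miR-92b-5p, with 16 reads in anagen and 43 in catagen (log2 -1.25, interval -2.17 to -0.39, exact p = 0.00298). Of all 299 arms tested 27.4% were called, 5.69% higher and 21.7% lower in anagen, and the share of the members did not exceed that background. The median log2 ratio was -0.07 over the 10 main arms and -0.41 over all arms tested. Size factors taken from the miRNA arms raised every log2 ratio of this pair by 0.30, and with them no member arm was called, against 58 of all 298 arms: miR-93-5p came to -0.81 and miR-92b-5p to -0.95. edgeR's exact test called 2 member arms and 77 of all 299 arms with an assumed coefficient of variation of 0.1. With 0.4 it called 0 member arms and 9 of all arms. A minimum of 100 reads in both libraries left out miR-92b-5p, with 1 member arm and 28 of all 154 arms called.

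The second comparison set growing against resting skin. miR-17-5p had 63.9 TPM in anagen and 111 in telogen, 1.73 times more in telogen (log2 -0.79, interval -0.89 to -0.69). Its seed relatives miR-106b-5p (log2 -0.79, interval -0.88 to -0.70), miR-93-5p (-0.70, interval -0.76 to -0.63) and miR-20a-5p (-0.52, interval -0.65 to -0.40) were lower in anagen as well. With all tags counted, the members with the seed ATTGCAC lay near 0: miR-92a-3p at 0.02 (interval -0.01 to 0.05), miR-92b-3p at 0.09 (interval -0.05 to 0.23) and miR-25-3p at 0.17 (interval 0.14 to 0.21). The value of miR-92a-3p joined a log2 ratio of 0.59 (interval 0.55 to 0.64) for its tags of 18 to 20 bases and one of -0.70 (interval -0.75 to -0.65) for its longer tags. miR-19b-3p stood at -0.30 (interval -0.38 to -0.22) and miR-18a-5p at 0.33 (interval -0.12 to 0.77). Of the 16 member arms tested 1 was called, miR-92b-5p, with 16 reads in anagen and 60 in telogen (log2 -1.15, interval -2.05 to -0.34, exact p = 0.00381), against 24.6% of all 297 arms tested (5.72% higher and 18.9% lower in anagen). The median over the main arms was -0.14 and that over all arms tested -0.29. Scaling to the reads in miRNA arms lowered every log2 ratio of this pair by 0.32 and called 4 member arms where 113 of all 358 arms were called. miR-17-5p (-1.11), miR-106b-5p (-1.10) and miR-93-5p (-1.01) were called beside miR-92b-5p, and miR-25-3p turned to -0.14. With size factors, no member arm was called, against 70 of all 300 arms. The call of miR-92b-5p was lost although its log2 ratio, -1.003, still passed the limit of 1. edgeR's exact test, with an assumed coefficient of variation of 0.1 or 0.4, also called 0 member arms, against 71 or 16 of all 297 arms.

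The third comparison set regressing against resting skin. miR-25-3p, at 1256 TPM in catagen and 636 in telogen, was 1.98 times higher in catagen (log2 0.98, interval 0.95 to 1.01), just under the limit of the criterion. miR-93-5p followed with 0.41 (interval 0.36 to 0.46), while the third member of that precursor, miR-106b-5p, stood at -0.14 (interval -0.21 to -0.06). With all tags counted, the members of miR-17-92 above 100 reads were lower in catagen, except miR-18a-5p: miR-17-5p at -0.63 (interval -0.72 to -0.53), miR-19b-3p at -0.32 (interval -0.40 to -0.24), miR-20a-5p at -0.22 (interval -0.34 to -0.11) and miR-92a-3p at -0.21 (interval -0.25 to -0.18). Over tags of 21 bases or longer miR-92a-3p turned to 0.42 and the miR-17-92 sum to 0.14. miR-18a-5p stood at 0.19 (interval -0.26 to 0.63), and miR-92b-3p at -0.31 (interval -0.46 to -0.16). None of the 15 member arms tested was called, against 12.8% of all 297 arms tested (7.07% higher and 5.72% lower in catagen), although 10 of the 15, and 175 of all 297 arms, had an unadjusted Audic-Claverie p below 0.05. Fisher's exact test also called 0 member arms and 38 of all arms, and edgeR's exact test called 0 member arms and 35 or 2 of all arms with an assumed coefficient of variation of 0.1 or 0.4. The median was -0.19 over the main arms and 0.11 over all arms tested. Taking the muscle miRNAs out of the total put miR-25-3p at 1.07 and called it, whereas it stood at 0.67 when scaled to the reads in miRNA arms and at 0.83 with size factors.

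**Figure D2:**
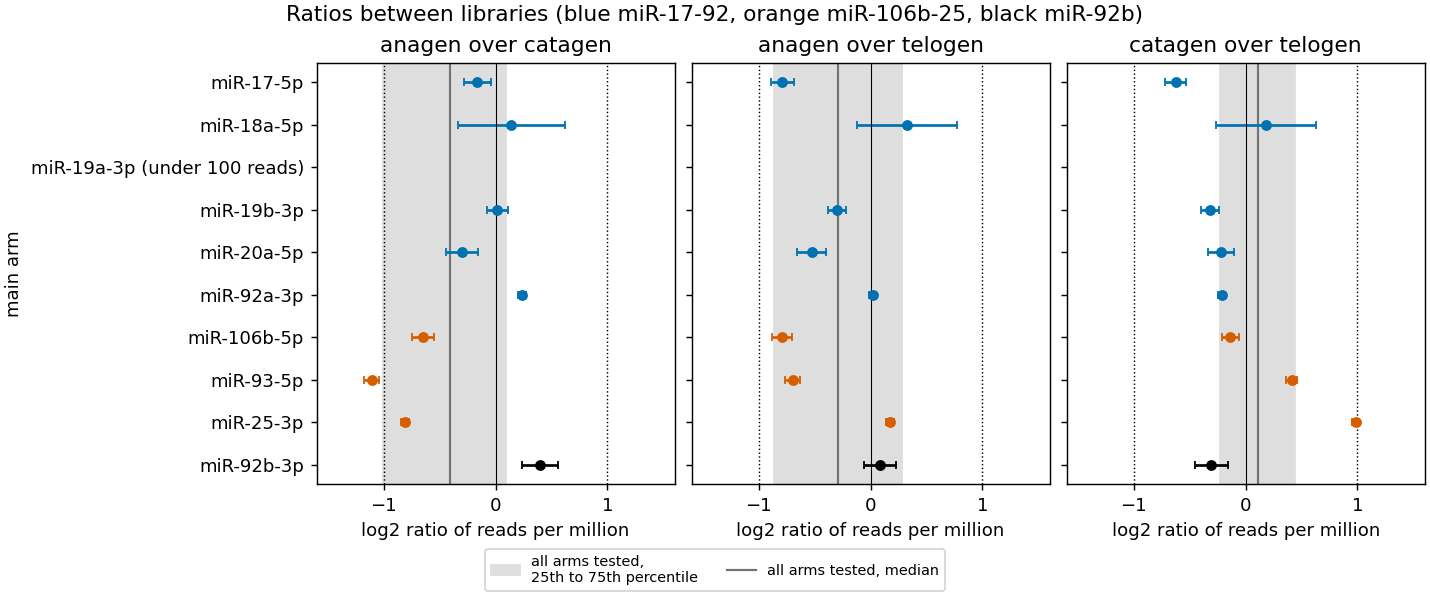
Log2 ratio of TPM between libraries for the main arms, 1 panel per pair, with exact 95% counting intervals; the grey band and line give the 25th to 75th percentile and the median over all arms tested, and dotted lines the limits of -1 and 1. miR-93-5p passes -1 in anagen over catagen, miR-25-3p reaches 0.98 in catagen over telogen, and miR-19a-3p is left out for its low reads.

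The sums over each cluster set the pattern out. The 6 main arms of miR-17-92 summed to 977, 880 and 1058 TPM in anagen, catagen and telogen, and the 3 of miR-106b-25 to 950, 1712 and 1023 TPM. Within a library, where scaling has no part, the log2 ratio of miR-17-92 over miR-106b-25 was 0.04 (interval 0.01 to 0.07) in anagen, -0.96 (interval -0.99 to -0.93) in catagen and 0.05 (interval 0.02 to 0.07) in telogen. The sums were thus about equal in anagen and telogen when all tags were counted, and in catagen miR-106b-25 had more reads. Over tags of 21 bases or longer miR-106b-25 had more reads in every library, the 3 log2 ratios being -0.58, -1.05 and -0.34 in the same order. The sums rest mostly on their most read arms: miR-92a-3p gave 77.1, 72.8 and 70.3% of the first and miR-25-3p gave 75.4, 73.4 and 62.1% of the second. Without those arms the sums were 224, 239 and 314 TPM for miR-17-92 and 234, 456 and 388 TPM for miR-106b-25. Of this remaining miR-17-92 sum, miR-19b-3p gave 49.6, 45.8 and 43.6%. Both miR-17-92 sums may include reads from the further gene copies of miR-92a or miR-19b, so they do not measure that cluster alone. The muscle miRNAs, the red cell sum and miR-199a were highest in catagen, and their part in this ratio was not tested. The dermal miR-214 was not highest there, but it had 10, 27 and 44 reads, and the arm counted may not be its main arm.

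Summed by seed, the pattern differed. The 4 arms with AAAGTGC had 341, 581 and 561 TPM, lower in anagen than in either other library (log2 -0.77, interval -0.82 to -0.72, and -0.72, interval -0.76 to -0.67). The 3 arms with ATTGCAC had 1511, 1929 and 1419 TPM, highest in catagen (log2 of anagen over catagen -0.35, interval -0.38 to -0.33, and -1.19 over tags of 21 bases or longer). miR-25 supplied 47.4, 65.1 and 44.8% of the ATTGCAC reads, and miR-92a had 1.05, 0.510 and 1.17 times the reads of miR-25. Over tags of 21 bases or longer miR-25-3p had more reads than miR-92a-3p in every library, with 7810 against 4080 reads in anagen, 21561 against 10043 in catagen and 14593 against 11172 in telogen. miR-92a-3p had 18, 20.1 and 18.8 times the reads of miR-92b-3p in the 3 libraries.

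The reads of miR-92a-3p differed in length between libraries. In anagen and telogen the most frequent miR-92a-3p tag was 20 bases long, and in catagen it was the same sequence with 2 bases more at the 3′ end. The pair is shown because the totals above add them together.
miR-92a-3p in anagen and telogen: tATTGCACttgtcccggcct
miR-92a-3p in catagen: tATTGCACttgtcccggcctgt

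The tag of 20 bases was read 7524 times in anagen, 1512 in catagen and 8593 in telogen, whereas the tag of 22 bases had 6629 reads in catagen, 57.1% of the arm. Of all miR-92a-3p reads, 66.1% (Wilson 95% interval 65.3 to 67.0%) were under 21 bases in anagen, 13.5% (interval 12.9 to 14.1%) in catagen and 44.4% (interval 43.7 to 45.1%) in telogen. The number of the short and the long reads therefore differed in opposite directions. Reads of 18 to 20 bases stood at 498, 86.4 and 330 TPM, and those of 21 bases or longer at 255, 554 and 414 TPM. Between anagen and catagen the log2 ratio was 2.53 (interval 2.45 to 2.61) for the short and -1.12 (interval -1.17 to -1.07) for the long reads, where both together gave 0.23. The direction of miR-92a between these libraries, and that of the miR-17-92 sum, which came to -0.75 over tags of 21 bases or longer, thus depended on which tags were counted.

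The other ATTGCAC member of high level had the same order of libraries. miR-25-3p had 31.8, 5.20 and 15.0% of its reads under 21 bases, and its most frequent length stayed at 22 bases in every library. Over tags of 21 bases or longer, miR-25-3p stood at 488, 1190 and 540 TPM, with log2 ratios of -1.29 for anagen over catagen and 1.14 for catagen over telogen, both past the limit of 1. For miR-93-5p the share under 21 bases was 8.12, 1.13 and 3.53%, and tags of 23 bases made up 38.5, 72.7 and 57.4% of its reads. miR-20a-5p had 8.38, 0.93 and 2.74% under 21 bases, miR-17-5p 5.08, 1.00 and 2.48%, miR-106b-5p 7.29, 2.35 and 3.62% and miR-92b-3p 17.3, 7.44 and 8.53%. miR-19b-3p, at 0.79, 0.05 and 0.81%, and the minor arm miR-25-5p, at 1.61, 1.63 and 1.12%, had few short reads in any library.

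The order of the libraries was not particular to the members. Over all arms with at least 100 reads the median share under 21 bases was 7.95% in anagen (159 arms), 2.24% in catagen (174 arms) and 3.50% in telogen (194 arms), and the median over the 10 main arms was 8.25, 1.07 and 3.25%. miR-92a-3p was among the arms with most short reads, with 10 of 159, 25 of 174 and 9 of 194 arms above it. Whether the shorter reads arose in the skin or in the handling of the RNA was not tested.

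**Figure D3:**
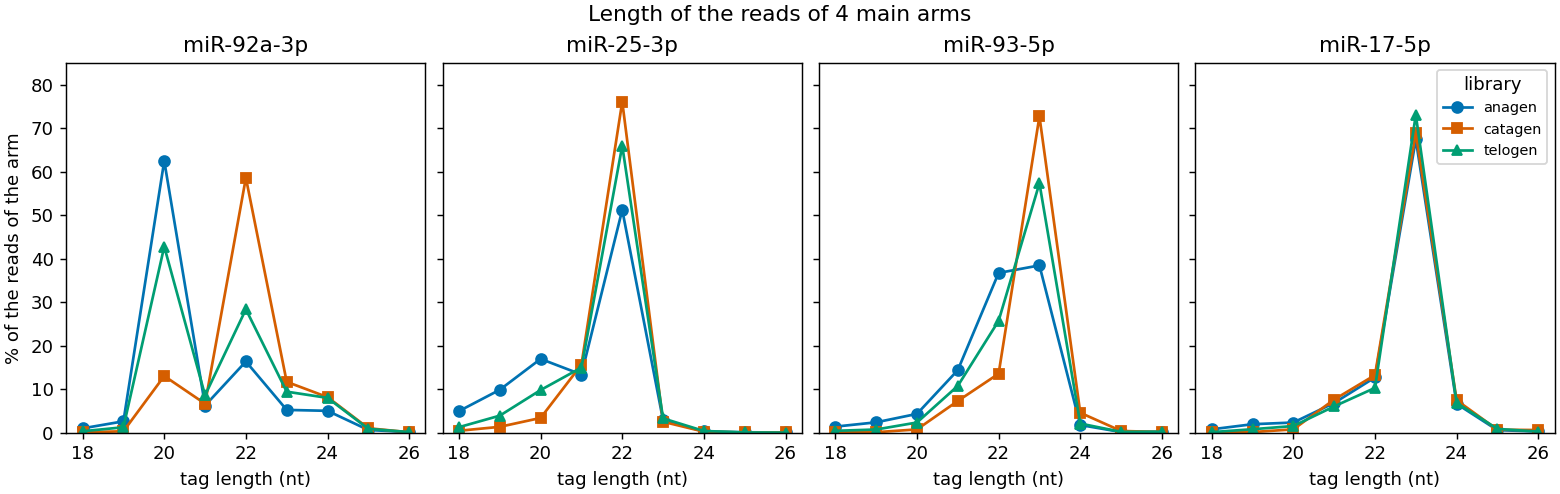
Share of an arm's reads by tag length in bases (nt) for 4 main arms, with 1 line per library. miR-92a-3p peaks at 20 in anagen and telogen and at 22 in catagen, whereas miR-25-3p peaks at 22 and miR-17-5p at 23 in all libraries; miR-93-5p peaks at 23 with a broad shoulder at 22 in anagen.

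A start that shifts by 1 base moves the seed. For miR-17-5p, tags starting 1 base earlier made up 7.59% (Wilson interval 6.17 to 9.30%) of the reads from both starts in anagen, 8.20% (interval 6.88 to 9.75%) in catagen and 8.79% (interval 7.87 to 9.81%) in telogen. These were 84, 116 and 288 reads, of which 83, 116 and 284 began with an added T, and they were not counted in the levels above.
miR-17-5p started 1 base earlier: tCAAAGTGcttacagtgcaggta

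This form has the seed CAAAGTG in place of AAAGTGC. Apart from miR-19a-3p, which had too few reads to tell, the share of that earlier start was at most 0.929% in any library among the 8 other main arms. miR-92a-3p had 467, 334 and 488 reads starting 1 base later, with the seed TTGCACT, or 3.73% (interval 3.41 to 4.08%), 2.80% (interval 2.52 to 3.11%) and 2.37% (interval 2.17 to 2.59%). For miR-92b-3p the later start took 3.76, 3.12 and 3.48%, for miR-25-3p 0.478, 0.377 and 0.308%, and for miR-93-5p 1.02, 0.705 and 0.673%. The intervals of the 3 libraries overlapped for the earlier start of miR-17-5p.

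The share of reads from the minor arm, which compares both products of a hairpin within a library, differed between libraries for 5 members with enough reads to test. Of the 3 minor arms with most reads, these had the highest shares.
miR-17-3p: aCTGCAGTgaaggcacttgtag
miR-106b-3p: cCGCACTGtgggtacttgctgc

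miR-17-3p had 309, 350 and 349 reads, or 23.2% (interval 21 to 25.5%), 21.2% (interval 19.3 to 23.3%) and 10.5% (interval 9.46 to 11.5%) of the reads of its hairpin. The telogen share was lower than that of anagen (Fisher's exact test, Benjamini-Hochberg adjusted over 15 tests, p = 2.42e-26) and of catagen (adjusted p = 8.03e-23), and anagen and catagen did not differ beyond counting error (adjusted p = 0.229). While miR-17-5p was 1.73 times higher in telogen than in anagen, miR-17-3p was lower there, at 12.9 against 19.3 TPM (log2 ratio of anagen over telogen 0.58, interval 0.35 to 0.81). With only the most abundant tag of each arm this ratio was -0.20, and the share of miR-17-3p was 8.33, 15.2 and 5.22%.

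miR-106b-3p kept nearly the same level, at 27.6, 26.8 and 26.6 TPM, while its 5p partner varied between 82.3 and 142 TPM. Its share was 25.1% in anagen, 17.2% in catagen and 15.7% in telogen. Anagen was above catagen (adjusted p = 3.53e-10) and telogen (adjusted p = 1.96e-16), and catagen and telogen did not differ beyond counting error (adjusted p = 0.132). miR-25-5p had 27.2, 27.1 and 19.9 TPM, lower in telogen (log2 0.45 for anagen over telogen, interval 0.27 to 0.64), and its share of 3.66, 2.11 and 3.03% was lowest in catagen, where the main arm was highest (anagen against catagen, adjusted p = 2.43e-16). miR-93-3p had 32, 38 and 80 reads, a share of 1.30, 0.638 and 1.19%, also lowest in catagen (against anagen, adjusted p = 0.00468). Between anagen and catagen, minor arms of the 3 hairpins inside MCM7 thus did not show the catagen excess of miR-25-3p and miR-93-5p. Their log2 ratios were 0.04 for miR-106b-3p (interval -0.15 to 0.23), 0.00 for miR-25-5p (interval -0.19 to 0.19) and -0.07 for miR-93-3p (interval -0.79 to 0.65). For catagen over telogen miR-25-5p, like miR-25-3p, was higher in catagen (log2 0.45, interval 0.27 to 0.63). In that pair miR-106b-3p stood at 0.01 (interval -0.16 to 0.18) and miR-93-3p at -0.50 (interval -1.09 to 0.08).

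miR-92b went the other way, with a minor arm share of 2.33% in anagen, 6.92% in catagen (adjusted p = 0.000172) and 5.32% in telogen. With only the most abundant tag of each arm these shares were 5.56, 5.98 and 13.9%, and the log2 ratio of miR-92b-5p between anagen and catagen was -0.31, not called. Between anagen and telogen that tag, with 5 and 27 reads, gave -1.68 where all tags gave -1.15, and it was not called either. The other minor arms were too rare for a test of their share. miR-18a-3p had 10, 12 and 29 reads, miR-20a-3p 7, 11 and 4, miR-19b-5p 1, 3 and 5, and the listed miR-92a-5p 2, 0 and 0. Fisher's exact test here compares the reads of 2 libraries, not replicates.

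**Figure D4:**
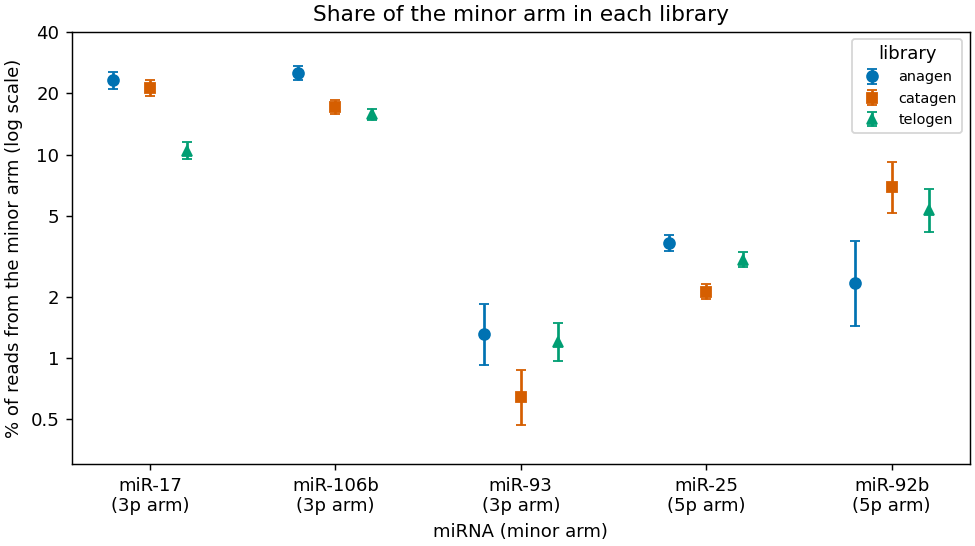
Percentage of a miRNA's reads that come from its minor arm, on a log axis, for the 5 miRNAs tested, with Wilson 95% intervals. miR-17 is lowest in telogen at 10.5%, miR-106b highest in anagen at 25.1%, and miR-93 and miR-25 are lowest in catagen.

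For the miR-106a-363 cluster, the other close relative, the tags held belong to the arm opposite to the known mature miRNA, since none carries one of the seeds above. These arms had 2, 2 and 12 reads for miR-106a, 3, 5 and 27 for miR-20b and 9, 18 and 31 for miR-363. The arm of miR-363 reached the minimum in 2 of the comparisons, with no call, and the other two in none. The mature arms, and miR-18b, were not analysed here, so the level of this cluster is not given.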

How the data were processed

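Small RNA of 18 bases or longer from 3 pools of goat skin RNA was sequenced on an Illumina/Solexa Genome Analyzer. The authors filtered out reads of low quality, those lacking adaptor or insert and those under 18 bases, and deposited for each library the remaining distinct tags with their counts, unnormalised. Mapping by the authors used SOAP and bovine miRBase sequences, and the deposited tags carry no names or build. Tags were assigned here by their first 18 bases to the tags listed for each miRNA (2697 distinct tags in a shortened copy of the list), listed tags overlapping by 14 bases or more being joined into an arm. For the 5 members without a listed main arm, tags with at least 100 reads that shared at least 13 of their first 18 bases with a listed member arm were paired with the listed opposite arms by RNAduplex (ViennaRNA 2.7.2). Each member's candidate gave a lower free energy with its own partner than any other candidate (for miR-17 -22.8 against -21 kcal/mol, for miR-92a -24.8 against -18.4), so names rest on pairing and not on a miRNA database, and these limits were tightened after candidates at looser limits had been seen. Counts were divided by the clean reads of the library, times 1000000 (TPM). Ratios have exact Clopper-Pearson 95% intervals, shares Wilson intervals. Calls used the two-sided Audic-Claverie exact test over all arms of at least 1 TPM in either library, with 0 set to 0.01 TPM, as in the methods of the study; the limits for a call, an absolute log2 ratio above 1 with p below 0.01, were set here. The test was run on simulated counts that held counting error only, which cannot show how it behaves with spread between pools. No correction of this p for multiple testing was made. The depth of 15997828 to 27016012 clean reads places 3 reads at 0.111 to 0.188 TPM, and intervals cover counting error only, since amplified reads are not independent molecules. All 10 members were named, and an arm under 100 reads over the 3 libraries was given no ratio unless it was called. The members, marker lists and tests were chosen with earlier results of these data known. Python 3.11.15 with NumPy 2.4.6, SciPy 1.17.1 and matplotlib 3.10.9 were used, and edgeR 4.0.16 (its exact test, with the biological coefficient of variation set to 0.1 or 0.4) served as an alternative. Other alternatives were scaling to miRNA reads, to median-of-ratios size factors or without muscle miRNAs, other choices of tags, minimums and tests.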

Additional observations from a re-analysis of the deposited data

How the results depend on the processing

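With 1 library per stage no replicate could be left out. No paired analysis was possible because each group has a single library. Restriction to tags inside the hairpin was not run, since no hairpin sequences were held. A ratio was given a direction only where its counting interval lies off 0. Over 42 arm ratios and 6 alternatives, 223 values kept their side of the criterion and did not reverse, 8 reversed, 16 newly passed and 5 no longer passed it. The cause of the changes below was not tested, other than the added shift of each scaling. Median-of-ratios size factors, which add 0.30, 0.15 and -0.15 to every log2 ratio in the comparisons of the report (in its order), left 0 calls in both anagen pairs (58 of all 298 and 70 of 300 arms), and gave 0.034 for the miR-17-92 sum and 0.040 for the miR-106b-25 sum in anagen over telogen, 0.13 for miR-17-5p and 0.20 for miR-17-92 without miR-92a in anagen over catagen, and -0.10 for the AAAGTGC sum in catagen over telogen. Scaling to miRNA reads (shifts of -0.00, -0.32 and -0.31) gave 4 calls in anagen over telogen (113 of all 358 arms), with miR-25-3p at -0.14 and the ATTGCAC sum at -0.22, and in catagen over telogen -0.26 for the AAAGTGC sum and -0.081 for miR-106b-25 without miR-25. Taking muscle miRNAs out gave 1 call in catagen over telogen (43 of all 308 arms). Tags of 21 bases or longer gave 4 calls in anagen over catagen (100 of all 286 arms) and 1 in catagen over telogen (42 of 287). With them anagen over catagen came to -0.75 for the miR-17-92 sum, -1.22 for the miR-106b-25 sum and -1.12 for miR-92a-3p; catagen over telogen to 0.14 for the miR-17-92 sum and 0.42 for miR-92a-3p; and anagen over telogen to -0.15 for miR-25-3p and -0.35 for the ATTGCAC sum. The most abundant tag alone, which for miR-92a is the tag of 20 bases, gave 5, 2 and 2 calls in the order of the comparisons (89 of all 225, 67 of 230 and 45 of 230 arms); 1.48, 0.26 and -1.22 for the miR-17-92 sum; -1.41 for the miR-106b-25 sum in anagen over catagen and 1.02 in catagen over telogen; -0.19 for miR-92b-3p in anagen over catagen; and in anagen over telogen -0.17 for miR-25-3p and -0.20 for miR-17-3p. A shared start of 20 bases gave 1 call in catagen over telogen (38 of all 288 arms), -1.02 for the miR-106b-25 sum in anagen over catagen and -0.0018 for the ATTGCAC sum in anagen over telogen. A minimum of 100 reads in both libraries left 1 and 0 calls in the anagen pairs (28 of all 154 and 20 of 155 arms), edgeR 2 and 0 with an assumed coefficient of 0.1 (77 of 299 and 71 of 297) and 0 and 0 with 0.4 (9 of 299 and 16 of 297), so the call of miR-93-5p rests on assuming little spread between pools. Added after seeing the data were the ratio of miR-92a-3p to miR-17-5p over longer tags, given above, and the cluster ratio within a library: over the most abundant tags the log2 of miR-17-92 over miR-106b-25 was 0.51, -2.38 and -0.15 in anagen, catagen and telogen, and with a start of 20 bases 0.18, -0.95 and 0.08, lowest in catagen each time. Of 15 minor arm shares, 4 moved beyond their interval with tags of 21 bases or longer and 12 with the most abundant tag. Depth limits miR-19a and the rare minor arms, where a few reads decide the value.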

Other observations

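The tag listed for miR-92a-5p had 2, 0 and 0 reads in the anagen, catagen and telogen libraries. A tag start that differs from it by G12A (positions from 1 at the 5′ end, the listed base first) had 66, 70 and 89 reads and was listed for no miRNA in the copy held. It was left out of the minor arm of miR-92a, and which gene it comes from was not tested. Next to miR-17-5p, a start that differs by T10C had 6, 17 and 47 reads and was likewise listed for none.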
